A study of Bos taurus with 12 samples.

Results

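Granulosa cells and theca cells of large bovine follicles were compared on 4 of the study's 12 arrays. These were the 2 arrays titled as granulosa and the 2 titled as theca of follicles over 10 mm in diameter, and no measured value entered their choice. The other 8 arrays hold both layers of small (up to 5 mm) and medium (5 to 10 mm) follicles, again 2 arrays a group. All groups came from untreated ovaries of young nonpregnant cycling heifers, taken in the follicular stage, in which no corpus luteum is present. An RNA sample held cells of 20 to 40 equal-sized follicles according to the labels' extract protocol. The series' design text instead counts 20 to 40 ovaries, gathered from 6 to 10 animals, in a sample. How the layers were parted from each other is not given in the sources used here. The comparison asks which transcripts set the layers apart when the follicle is large.

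The granulosa is an epithelium that lines the follicle cavity and has no vessels of its own. A basement membrane parts it from the theca, a layer of steroid-producing cells, fibroblasts, smooth muscle, vessels and leukocytes. Theca cells answer to LH by turning cholesterol into androgens, for which they need the enzyme CYP17A1. Granulosa cells answer to FSH and turn those androgens into oestrogens with the aromatase CYP19A1. The large follicle that goes on to ovulate is the main source of oestradiol before ovulation.

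Values are the deposited array signals, and differences are granulosa minus theca of log2(signal + 16) ± the model's standard error (limma), with n = 2 arrays a layer. A negative difference thus marks a transcript that was lower in granulosa. The added 16 keeps dim signals from giving large folds, so the fold of a dim gene is understated. Signals are written for replicate 1 and then replicate 2, and the arrays are called granulosa 1, granulosa 2, theca 1 and theca 2. In RNA of a whole layer, fewer cells of a type and less RNA per cell cannot be told apart.

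The replicates had a Spearman coefficient of 0.883 in granulosa and 0.95 in theca, and arrays of different layers 0.815 to 0.855. Granulosa 1 stood apart, with a median signal of 48.7 against 34.0 to 38.6 on the other large arrays. Its actin control transcript gave 21.0 times the signal at the 3' end over the 5' end, against 4.14 to 5.77. In small follicles, theca 1 stood apart by a GAPDH ratio of 8.36, against 0.984 to 1.3 on the other 11 arrays, and an actin ratio of 11.2. The GAPDH ratio of granulosa 1 was within the range of 1.03 to 1.17 of all 4 large arrays. The description field names theca for every sample, and the titles were used. CYP17A1 and the keratin KRT18 went with the titles, as given below, whereas the aromatase values of the layers overlapped.

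The layers differed in 760 of 17236 probe sets tested, which is 4.41%, at a limma adjusted p under 0.05. Of these 348 (2.02%) were higher in granulosa and 412 (2.39%) lower. The called differences were larger on the theca side. Among probe sets at least 8-fold apart, 15 were higher and 69 lower in granulosa, and past 32-fold there were 0 and 5. The smallest called difference was 1.13 (log2). By gene, taking the brightest probe set of each, 384 of 7893 were called (4.87%), 175 higher (2.22%) and 209 lower (2.65%). The called members of each gene list below are to be read beside these shares. The median over all genes tested was 0.05.

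**Figure D1:**
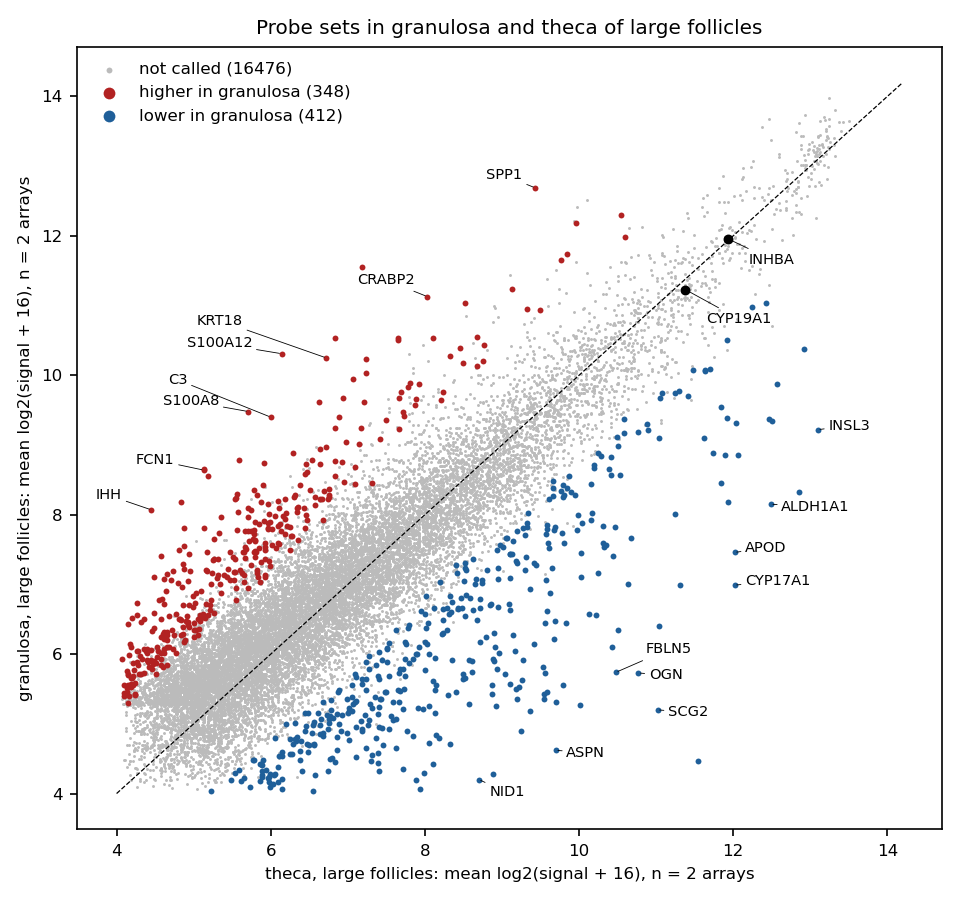
Each point is 1 of the 17236 tested probe sets, with its mean log2(signal + 16) over the 2 theca arrays on the x axis and over the 2 granulosa arrays on the y axis. Red points (348) were called higher in granulosa and blue points (412) lower, and the dashed line marks equal means. The blue points reach farther from the line than the red ones, while CYP19A1 and INHBA (black) lie beside it.

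Theca steroid and identity genes lay lower in granulosa. Of 16 tested genes 8 were lower in granulosa and 0 higher (also 0 higher at an unadjusted p under 0.05), with a median difference of -1.33 against 0.05 over all genes. CYP17A1, the enzyme that makes androgens, had signals of 5782 and 2941 in theca and 50.1 and 228 in granulosa. Both theca arrays lay far above both granulosa arrays, a difference of -5.03 ± 0.57 (32.6-fold, adjusted p = 0.000291). The peptide hormone INSL3 gave 8462 and 9089 in theca and 649 and 519 in granulosa (-3.88 ± 0.47, adjusted p = 0.000434), and its 2 theca values were close to each other. APOD, a lipid carrier, gave 5251 and 3240.2 in theca and 196 and 130.5 in granulosa (-4.55 ± 0.39, adjusted p = 3.23e-05), although its other probe sets ran from -4.39 to -0.61. The retinal dehydrogenase ALDH1A1, which makes retinoic acid, gave 5339 and 6174 in theca and 498 and 140.3 in granulosa (-4.34 ± 0.51, adjusted p = 0.000355). TCF21, a transcription factor of mesenchyme, gave 1706 and 1472 in theca and 124 and 100.3 in granulosa (-3.65 ± 0.37, adjusted p = 0.000123). All 5 kept their calls when any 1 of the large arrays was left out, with a highest adjusted p of 0.0072.

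The remaining called members are named here after their values were seen. The nuclear receptor NR2F2 had signals of 1279 and 951 in theca and 80.4 and 78.8 in granulosa (-3.55 ± 0.30, adjusted p = 3.23e-05), and kept its call throughout. FDX1, which passes electrons to the mitochondrial steroid enzymes, gave -1.41 (adjusted p = 0.0217), but lost its call without granulosa 1 (0.0895), theca 1 (0.202) or theca 2 (0.0805). SCARB1, the receptor that takes up cholesterol from HDL, gave -1.69 (adjusted p = 0.0427) and lost its call without granulosa 1 (0.159), granulosa 2 (0.0851) or theca 1 (0.328). The count of 8 became 6, 7, 6 and 7 without granulosa 1, granulosa 2, theca 1 and theca 2 in turn.

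The early steps of steroid synthesis, which both layers can carry out, did not pass. STAR, which brings cholesterol into mitochondria, had 3599 and 1592 in theca and 949 and 1391 in granulosa, so that theca 2 lay near granulosa 2 (-1.05 ± 0.67, adjusted p = 0.393). CYP11A1, which cuts the cholesterol side chain, overlapped between the layers with 3903 and 2625 in theca and 1793 and 3502 in granulosa (-0.35 ± 0.39, adjusted p = 0.644). HSD3B1, the next enzyme of the path, overlapped as well with 1878 and 2325 in theca and 1655 and 1959 in granulosa (-0.21 ± 0.37, adjusted p = 0.788). The LH receptor LHCGR had 87.6 and 158 in theca and 41.4 and 39.8 in granulosa, with both theca values above both granulosa values, at -1.25 ± 0.36 and an adjusted p of 0.065. Its other probe set gave -1.23.

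**Figure D2:**
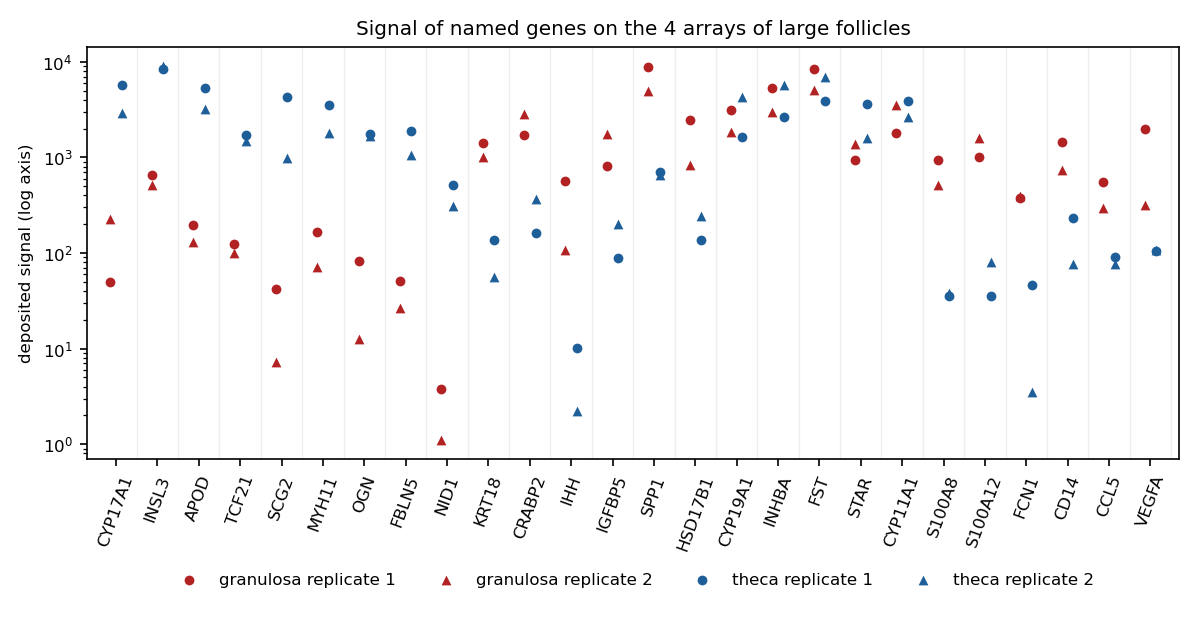
Deposited signals (log axis) of 26 named genes on the 4 arrays of large follicles, with circles for replicate 1 and triangles for replicate 2, granulosa in red and theca in blue. The theca values of CYP17A1, INSL3 and APOD lie far above the granulosa values, the colours mix for CYP19A1, INHBA and FST, and granulosa lies above for KRT18, S100A8 and S100A12.

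Further genes stood among the 15 largest falls without belonging to the steroid list. SCG2, a precursor of secreted neuropeptides, had the largest named difference, with signals of 4230.2 and 994 in theca and 42.4 and 7.2 in granulosa (-5.81 ± 0.71, 56.3-fold, adjusted p = 0.000434). Theca 1 held the most of it, and theca 2 too lay far above both granulosa arrays. The protease ADAMDEC1 gave 663 and 533 in theca and 23.0 and 6.4 in granulosa (-4.37 ± 0.38, adjusted p = 3.23e-05). CLDN11, a tight junction protein, gave 2024 and 910.4 in theca and 50.7 and 54.4 in granulosa (-4.33 ± 0.64, adjusted p = 0.00195). ERP27, a chaperone of the endoplasmic reticulum, gave 620.5 and 526 in theca and 14.9 and 37.7 in granulosa (-3.85 ± 0.37, adjusted p = 6.2e-05). All 4 kept their calls without any 1 large array, with a highest adjusted p of 0.0338.

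Granulosa markers were higher in granulosa for 7 of 21 tested genes and lower for 0 (0 at an unadjusted p under 0.05), with a median of 1.38. KRT18, an epithelial keratin, gave 1425 and 1019 in granulosa and 138 and 56.7 in theca with both granulosa values far above both theca values (3.53 ± 0.40, adjusted p = 0.000271). It kept its call without any 1 array, with a highest adjusted p of 0.00444. IHH, the hedgehog ligand that granulosa cells send to the theca, gave 571 and 107 in granulosa and 10.1 and 2.2 in theca (3.62 ± 0.68, adjusted p = 0.00919). CRABP2, which binds retinoic acid in the cell, gave 1731 and 2858 in granulosa and 162 and 369.5 in theca (3.10 ± 0.60, adjusted p = 0.0111). HSD17B1, which turns oestrone into oestradiol, gave 2459 and 834 in granulosa and 137 and 246 in theca, with granulosa 1 well above granulosa 2 (2.85 ± 0.66, adjusted p = 0.0272). IHH lost its call without granulosa 1 (0.0946) or theca 2 (0.0802), CRABP2 without granulosa 2 (0.0542) or theca 1 (0.125) and HSD17B1 without granulosa 1 (0.203), theca 1 (0.192) or theca 2 (0.0773).

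KRT19, a further keratin, gave 134 and 38.5 in granulosa and 0.8 and 17.5 in theca (1.93 ± 0.45, adjusted p = 0.029), and its call went without granulosa 1 (0.207) or theca 1 (0.247). The last called members, named after their values were seen, were KRT8 (1.67 ± 0.42, adjusted p = 0.041), the keratin partner of KRT18, and the nuclear receptor NR5A2 (1.70 ± 0.45, adjusted p = 0.0484). Neither was called once any 1 of the 4 arrays was left out, with a highest adjusted p of 0.273 and 0.314. Without granulosa 1, granulosa 2, theca 1 and theca 2 the count of 7 became 2, 4, 2 and 3, and the median 0.76, 1.70, 1.05 and 1.48.

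The hormone genes that define granulosa function did not pass the test in large follicles. Aromatase, CYP19A1, had 3134 and 1820.5 in granulosa and 1633 and 4279 in theca, so that theca 2 was the highest of the 4 arrays (-0.15 ± 0.63, adjusted p = 0.923). INHBA, the subunit of activin A, overlapped in the same manner with 5342 and 2959 in granulosa and 2622 and 5756 in theca (0.03 ± 0.50, adjusted p = 0.98). Follistatin, FST, which binds activin, gave 8489 and 5089 in granulosa and 3878 and 6868 in theca (0.35 ± 0.47, adjusted p = 0.714). INHA, the inhibin subunit, gave 14212 and 8657 in granulosa and 7549 and 7722 in theca, with the granulosa values above the theca values by less than the test could call (0.54 ± 0.41, adjusted p = 0.482). The FSH receptor FSHR gave 152 and 53.0 in granulosa and 17.3 and 35.9 in theca (1.38 ± 0.64, adjusted p = 0.235), and anti-Mullerian hormone AMH gave 250.3 and 122 in granulosa and 52.5 and 81.4 in theca (1.23 ± 0.57, adjusted p = 0.238).

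Some of these transcripts were higher in theca of large than of small follicles. CYP19A1 stood at 21.9 and 52.8 in theca of small follicles and 912 and 184 in theca of medium ones, against 1633 and 4279 in theca of large ones. INHBA ran from 171 and 135 in small to 2622 and 5756 in large theca. The summed signal of the 21 granulosa markers was 28332 and 40797 in large theca and 55023 and 38834 in large granulosa, so that the layers overlapped. Of these 21 genes, 9 were higher on both large than on both small theca arrays, 5 were lower on both and 7 overlapped. The same shares over all tested genes were not counted, so these counts only describe the list. They also rest on theca small 1, which stood apart by its GAPDH ratio. The lower ones were KRT18 (292 and 221 in small and 138 and 56.7 in large theca), HSD17B1 (593 and 539.6, then 137 and 246), AMH (129.9 and 172, then 52.5 and 81.4), ESR2 and TNFRSF21. IHH stayed dim in theca at 43.3 or less in small and 10.1 or less in large follicles. Whether granulosa cells in the theca pools had a part in these values was not tested. In small follicles INHBA was called higher in granulosa (2.78), and in medium follicles both INHBA (1.83) and CYP19A1 (2.48) were. The change of the layer difference itself did not pass for either gene (adjusted p = 0.32 for CYP19A1 and 0.153 for INHBA).

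Genes that stood out in granulosa beyond its markers were the secreted phosphoprotein SPP1, the peptide precursor CARTPT and GUCA1A, a calcium sensor of guanylate cyclase. SPP1 gave 8789 and 4914 in granulosa and 699 and 649 in theca (3.26 ± 0.72, adjusted p = 0.022). CARTPT gave 392 and 192 in granulosa and 26.1 and 3.6 in theca (3.34 ± 0.78, adjusted p = 0.0287), and GUCA1A gave 919 and 193 in granulosa and 34.4 and 29.8 in theca with most of it on granulosa 1 (3.2 ± 0.84, adjusted p = 0.0463). LOC514170, a locus with no common name, gave 972 and 2203 in granulosa and 119 and 281 in theca (2.89 ± 0.75, adjusted p = 0.0456). None of these 4 calls held throughout when single large arrays were left out. SPP1 lost its call without granulosa 1 (0.152), theca 1 (0.115) or theca 2 (0.121), CARTPT without granulosa 1 (0.18), theca 1 (0.0713) or theca 2 (0.216), GUCA1A without granulosa 1 (0.301), theca 1 (0.182) or theca 2 (0.208) and LOC514170 without granulosa 1 (0.0917), granulosa 2 (0.161), theca 1 (0.274) or theca 2 (0.0925). ITGAV, the integrin subunit that binds SPP1, gave 4870.4 and 4580.5 in granulosa and 549 and 1683 in theca and did not pass (2.27 ± 0.94, adjusted p = 0.186). Its usual partner ITGB3 was lower in granulosa (-1.53 ± 0.37, adjusted p = 0.0345) on its brightest probe set, while the other gave 0.78, and the call was lost without granulosa 1 (0.134), granulosa 2 (0.068), theca 1 (0.273) or theca 2 (0.0724).

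Fibroblast genes were lower in granulosa for 8 of 19 tested members and higher for 0 (1 at an unadjusted p under 0.05), at a median of -1.51. ASPN, a small proteoglycan of collagen fibres, gave 674 and 983 in theca and 20.2 and 0.7 in granulosa (-5.08 ± 0.67, adjusted p = 0.000782). Osteoglycin, OGN, gave 1772 and 1686 in theca and 82.4 and 12.6 in granulosa (-5.04 ± 0.54, adjusted p = 0.000201). Both lay lower on granulosa 2 than on granulosa 1, and far below either theca array. DPT, a matrix protein of skin and stroma, gave 942 and 581 in theca and 58.0 and 21.9 in granulosa (-3.84 ± 0.56, adjusted p = 0.00176). The chemokine CXCL14 gave 289 and 233 in theca and 9.5 and 2.0 in granulosa (-3.69 ± 0.48, adjusted p = 0.00071), and the collagen chain COL1A1 4366 and 3032 in theca and 407 and 274 in granulosa (-3.38 ± 0.51, adjusted p = 0.00233), although the other probe set of COL1A1 gave -1.02. These 5 kept their calls without any 1 array, with a highest adjusted p of 0.0361.

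Not every stromal gene followed. COL1A2, the partner chain of COL1A1, gave 6100 and 5152 in theca and 1611 and 3819 in granulosa and did not pass (-1.17 ± 0.56, adjusted p = 0.25). PDGFRA, the receptor of stromal cells, overlapped, since granulosa 2 held the most with 846 (-0.35 ± 0.57, adjusted p = 0.77). POSTN, a matrix protein, lay the other way with 224 and 672 in granulosa and 37.6 and 138 in theca (2.16 ± 0.80, adjusted p = 0.143). Without granulosa 1, granulosa 2, theca 1 and theca 2 the median of the 19 genes was -0.96, -1.79, -1.47 and -1.33. Their summed signal was 31530 and 27679 in theca and 6518 and 11129 in granulosa.

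The wider fibrillar and elastic matrix had 6 of 20 genes lower in granulosa and 0 higher (0 at an unadjusted p under 0.05), with a median of -1.34. FBLN5, which helps assemble elastic fibres, gave 1886 and 1063 in theca and 51.2 and 26.5 in granulosa (-4.74 ± 0.38, adjusted p = 3.23e-05). SPARCL1, a matricellular protein, gave 2559 and 1715 in theca and 117 and 38.2 in granulosa (-4.64 ± 0.52, adjusted p = 0.000266), and LOX, which crosslinks collagen and elastin, 245 and 153 in theca and 5.8 and 3.0 in granulosa (-3.37 ± 0.36, adjusted p = 0.000215). These 3 kept their calls without any 1 array. MGP, an inhibitor of calcification, gave 7561 and 7176 in theca and 1065 and 78.5 in granulosa, with granulosa 1 far above granulosa 2 (-4.53 ± 0.82, adjusted p = 0.0069). Its call went without theca 1 (0.0538), and its other probe sets gave -0.50 and 0.32. COL6A1 (-2.48 ± 0.39, adjusted p = 0.00321) lost its call without theca 1 (0.0587), and its other probe sets gave -1.06 and 0.31. Without theca 1 the count of 6 became 3.

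Basement membrane genes were lower in granulosa for 4 of 14 and higher for 0 (0 at an unadjusted p under 0.05), at a median of -0.63. NID1, the linker of laminin and collagen IV networks, was at 3.8 and 1.1 in granulosa, close to the floor of the arrays, and at 518 and 308 in theca (-4.50 ± 0.40, adjusted p = 3.23e-05). EGFLAM, a laminin-like matrix protein, gave 580.5 and 548 in theca and 35.9 and 23.2 in granulosa (-3.68 ± 0.32, adjusted p = 3.23e-05). Both kept their calls without any 1 array. COL15A1 (-2.78 ± 0.46, adjusted p = 0.00433) lost its call without granulosa 1 (0.0574) or theca 1 (0.0694), and the laminin chain LAMA4 (-1.58 ± 0.41, adjusted p = 0.045) without granulosa 1 (0.0798), granulosa 2 (0.145), theca 1 (0.232) or theca 2 (0.175). The other chains varied, from LAMB1 at -1.29 and COL4A1 at -1.22 to HSPG2 at 0.62, none of them called. The count of 4 became 2 without granulosa 1 or theca 1.

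Smooth muscle and pericyte genes were lower in granulosa for 5 of 15, higher for 0 (0 at an unadjusted p under 0.05), at a median of -1.49. The smooth muscle myosin MYH11 gave 3519 and 1797 in theca and 168 and 71.8 in granulosa (-4.32 ± 0.50, adjusted p = 0.000338). RGS5, a pericyte gene, was at 227 and 251 in theca and at 2.9 and 4.2 in granulosa (-3.70 ± 0.32, adjusted p = 3.23e-05). MYLK, the kinase that starts contraction, gave 3981 and 3573 in theca and 399 and 504 in granulosa (-3.03 ± 0.42, adjusted p = 0.00102). These 3 kept their calls without any 1 array. The actin ACTA2 gave 8734 and 6889.9 in theca and 733 and 2339 in granulosa, with granulosa 2 far above granulosa 1 (-2.55 ± 0.60, adjusted p = 0.0302), and was not called without granulosa 1 (0.223), theca 1 (0.179) or theca 2 (0.116). TPM2 (-2.85 ± 0.50, adjusted p = 0.00616) lost its call without granulosa 1 (0.0678) or theca 1 (0.0722), and its other probe set gave -0.44. CNN1, a calponin of contractile cells, gave 191 and 537 in granulosa and 608 and 428 in theca, and the filament protein DES 53.1 and 316 in granulosa and 409 and 251 in theca. For both, granulosa 2 lay between the theca arrays. The list's summed signal was 2883 on granulosa 1, 7431 on granulosa 2, 26576 on theca 1 and 19843 on theca 2. Without granulosa 1, granulosa 2, theca 1 and theca 2 in turn, the count of 5 became 3, 7, 3 and 4 and the median -0.76, -2.29, -1.19 and -1.97.

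No endothelial gene passed the test in large follicles. Of 16 tested, limma called 0 in either direction, with 0 higher and 5 lower at an unadjusted p under 0.05 and a median of -0.44. PECAM1, the adhesion molecule of vessel walls, gave 100.5 and 26.8 in granulosa and 139.8 and 65.2 in theca (-0.67 ± 0.45, adjusted p = 0.42), so that granulosa 1 lay between the theca arrays. EMCN, a sialomucin of capillaries, gave 72.9 and 15.3 in granulosa and 194 and 88.9 in theca (-1.49 ± 0.50, adjusted p = 0.11), and SOX18, a transcription factor of vessels, 24 and 14.8 in granulosa and 95.2 and 49.8 in theca (-1.29 ± 0.36, adjusted p = 0.0575). Their summed signal was 1292 and 790 in granulosa and 1915 and 1071 in theca. The median was -0.98, -0.16, -0.11 and -0.92 when granulosa 1, granulosa 2, theca 1 or theca 2 was left out. In small follicles 11 of the 16 were called lower in granulosa (median -2.30, or 10 and -2.35 without theca small 1), and in medium follicles 14 (median -2.45). For no gene of the list did the change of the layer difference between large and other follicles pass, the lowest adjusted p being 0.0578.

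Leukocyte genes lay higher in granulosa. Of 14 genes shared by all leukocytes 5 were called higher and 0 lower (13 and 0 at an unadjusted p under 0.05), with a median of 1.6. CORO1A, an actin-binding protein of leukocytes, gave 1128 and 527 in granulosa and 196 and 86.6 in theca (2.42 ± 0.49, adjusted p = 0.0144). The integrin ITGB2 gave 840 and 212 in granulosa and 108 and 53.0 in theca (2.26 ± 0.54, adjusted p = 0.0306), and the Fc receptor chain FCER1G 547 and 195 in granulosa and 88.5 and 50.8 in theca (2.04 ± 0.41, adjusted p = 0.0143). For each of these 3 genes granulosa 1 was the highest array and theca 2 the lowest. RAC2 (1.76 ± 0.47, adjusted p = 0.0483) and LCP1 (1.72 ± 0.43, adjusted p = 0.037) were the other calls, and PTPRC, the leukocyte antigen CD45, gave 597 and 142 in granulosa and 99.9 and 85.4 in theca (adjusted p = 0.145). The summed signal of the list was 12526 on granulosa 1, 4708 on granulosa 2, 3178 on theca 1 and 1811 on theca 2. The 5 calls became 0 without granulosa 1, 10 without granulosa 2, 3 without theca 1 and 0 without theca 2, and the median became 0.92, 2.47, 2.11 and 1.24 in the same order.

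Macrophage genes were called higher for 3 of 15 and lower for 0 (8 and 0 at an unadjusted p under 0.05), at a median of 1.29. CD14, the receptor for bacterial lipopolysaccharide, gave 1433 and 741 in granulosa and 233 and 76.1 in theca (2.79 ± 0.49, adjusted p = 0.00616). CD5L, a secreted macrophage protein, gave 1023 and 201 in granulosa and 135 and 24.4 in theca (2.60 ± 0.66, adjusted p = 0.0412), and TLR2 374 and 128 in granulosa and 58.3 and 38.5 in theca (1.89 ± 0.47, adjusted p = 0.0367). Complement C1QA overlapped with 3081 and 763 in granulosa and 973 and 593 in theca (1.0 ± 0.51, adjusted p = 0.285), as granulosa 2 lay between the theca arrays. The macrophage perforin MPEG1, outside the list, gave 1634 and 578 in granulosa and 191 and 71.8 in theca (2.88 ± 0.60, adjusted p = 0.0169). The fatty acid carrier FABP4, also outside the list, gave 3923 and 548 in granulosa and 322 and 22.4 in theca (3.71 ± 0.95, adjusted p = 0.0427). FABP4 gave 1.66 in small and 2.62 in medium follicles, neither called, where the medians of the macrophage list were -0.98 and 0.02. CD14 lost its call without granulosa 1 (0.0736) or theca 2 (0.0873), CD5L without granulosa 1 (0.286) or theca 2 (0.353), TLR2 without granulosa 1 (0.246), theca 1 (0.122) or theca 2 (0.243), MPEG1 without granulosa 1 (0.149) or theca 2 (0.169) and FABP4 without granulosa 1 (0.297) or theca 2 (0.369). The 3 calls became 0, 11, 4 and 0, and the median 0.57, 2.15, 1.75 and 0.84, without granulosa 1, granulosa 2, theca 1 and theca 2.

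Genes of blood myeloid cells were higher in granulosa for 5 of 11 and lower for 0 (8 and 0 at an unadjusted p under 0.05), at a median of 1.53. S100A12, a calcium-binding protein of neutrophils and monocytes, gave 1002 and 1576 in granulosa and 35.3 and 81.3 in theca (4.17 ± 0.55, 18-fold, adjusted p = 0.000825). S100A8, of the same family, gave 932 and 519.8 in granulosa and 35.1 and 37.8 in theca (3.76 ± 0.49, adjusted p = 0.000681). The lectin FCN1 gave 372 and 393 in granulosa and 46.7 and 3.5 in theca (3.51 ± 0.51, adjusted p = 0.00158). Both granulosa arrays were high for all 3, and the calls held without any 1 array, with a highest adjusted p of 0.0209. TREM1 (1.66 ± 0.41, adjusted p = 0.0372) lost its call without granulosa 2 (0.152), theca 1 (0.276) or theca 2 (0.0743), and IL1RN (1.62 ± 0.42, adjusted p = 0.0428) without granulosa 1 (0.143), granulosa 2 (0.0949), theca 1 (0.243) or theca 2 (0.146). The partner of S100A8, S100A9, gave 103 and 150.2 in granulosa and 21.1 and 48.3 in theca and did not pass on its brightest probe set (1.53 ± 0.51, adjusted p = 0.11). The other probe set of S100A9 gave 2.67 and was called (adjusted p = 0.00481). The summed signal of this list was 3658 and 3798 in granulosa and 679 and 1262 in theca, and the count stayed between 3 and 4 without any 1 array. C3, the central protein of complement, was also higher on both granulosa arrays at 940 and 463 in granulosa and 40.5 and 56.8 in theca (3.40 ± 0.46, adjusted p = 0.000927) and kept its call throughout, with 0.95 and 2.83 on its other probe sets.

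Lymphocyte genes were higher for 7 of 17 and lower for 0 (13 and 0 at an unadjusted p under 0.05), at a median of 1.43. The T cell co-receptor chain CD8B gave 169.8 and 78.0 in granulosa and 28.0 and 5.2 in theca (2.11 ± 0.42, adjusted p = 0.013), and the chemokine CCL5 557 and 297 in granulosa and 90.3 and 77.2 in theca (2.09 ± 0.44, adjusted p = 0.0169). IL2RG, a shared cytokine receptor chain, gave 2.00 (adjusted p = 0.018), the adhesion molecule CD2 1.82 (adjusted p = 0.045) and perforin, PRF1, 1.75 (adjusted p = 0.0497). The immunoglobulin heavy chain IGHM, outside the list, gave 682 and 636 in granulosa and 141 and 72.0 in theca (2.52 ± 0.40, adjusted p = 0.00332), and lost its call without theca 2 (0.0537). The B cell markers CD79A and MS4A1 were too dim to be tested, at signals of 21.4 or less on the 4 arrays. The 7 calls became 0, 11, 2 and 0, and the median 0.80, 2.17, 1.52 and 1.23, without granulosa 1, granulosa 2, theca 1 and theca 2. The summed signal was 4360, 1696, 1022 and 734 on those arrays.

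Blood and antigen presentation genes gave few calls. Of 4 tested red cell and platelet genes 1 was called, the platelet chemokine PF4, with 111 and 49.3 in granulosa and 0.7 and 8.8 in theca (2.16 ± 0.40, adjusted p = 0.00814), lost without granulosa 1 (0.0843) or theca 1 (0.106). HBB, the beta chain of haemoglobin, gave 578 and 50.4 in granulosa and 29.1 and 7.7 in theca and did not pass (2.60 ± 0.73, adjusted p = 0.0587). The red cell genes ALAS2, SLC4A1 and EPB42 were too dim to be tested. Among 9 MHC class II genes, 1 was higher and 0 lower (2 and 0 at an unadjusted p under 0.05), at a median of 0.85. This was BOLA-DOA (1.32 ± 0.34, adjusted p = 0.045), lost without granulosa 1 (0.25), theca 1 (0.169) or theca 2 (0.277), while BOLA-DRA overlapped with 2204 and 651 in granulosa and 851 and 509.9 in theca. The class II median moved to 0.18, 1.72, 1.35 and 0.43 when granulosa 1, granulosa 2, theca 1 or theca 2 was left out. Whether blood in the granulosa pools had a part in these differences was not tested.

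**Figure D3:**
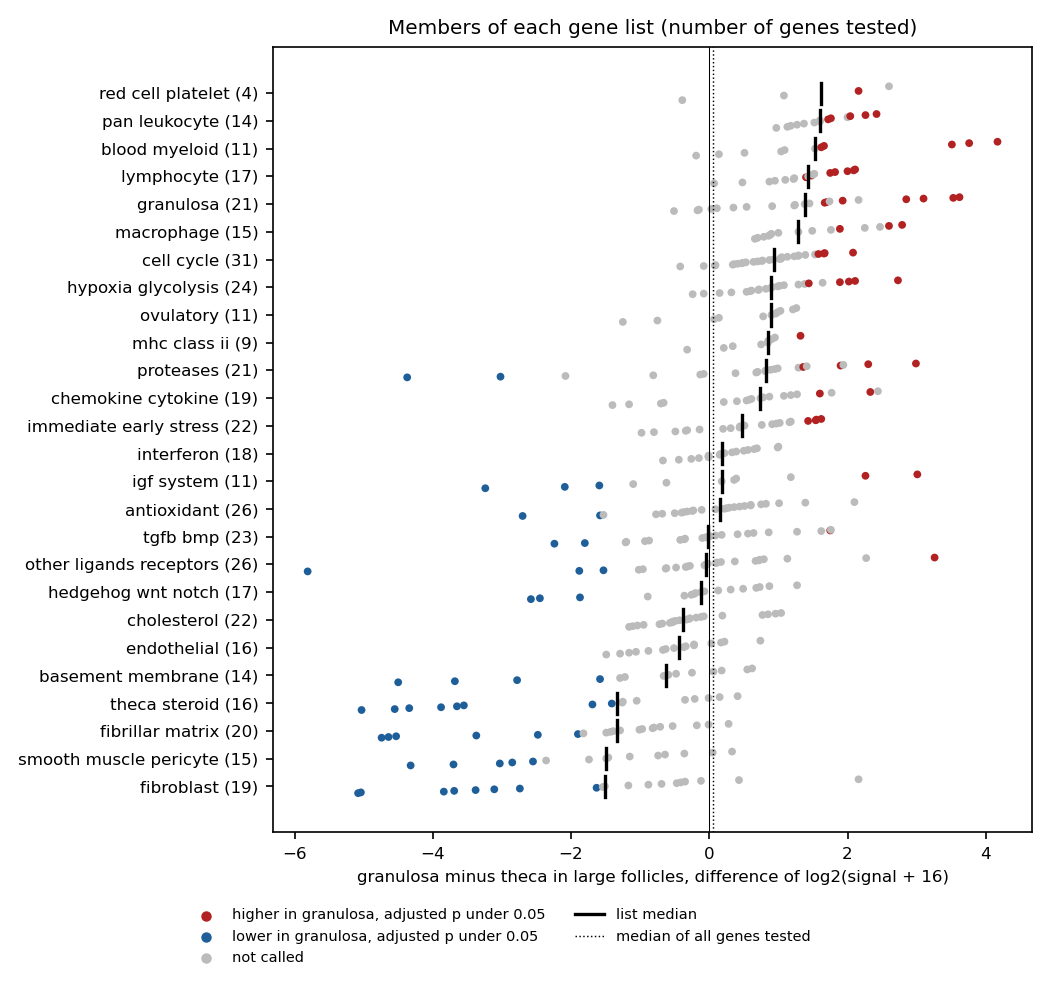
Each point is a tested gene of the list named at the left (number of tested genes in brackets), at its granulosa minus theca difference of log2(signal + 16) in large follicles. Red points were called higher in granulosa and blue points lower, thick bars are list medians and the dotted line is the median of all 7893 genes (0.05). The 4 leukocyte lists lie to the right with medians of 1.29 to 1.6 (0.57 to 1.67 without granulosa 1), and the fibroblast, smooth muscle, fibrillar matrix and theca lists to the left with medians of -1.51 to -1.33.

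Genes of hypoxia and glycolysis were higher in granulosa for 5 of 24 and lower for 0 (14 and 0 at an unadjusted p under 0.05), at a median of 0.90. VEGFA, the vessel growth factor, gave 1971 and 319 in granulosa and 106 and 108 in theca, with granulosa 1 far above granulosa 2 (2.73 ± 0.58, adjusted p = 0.0185). The glucose transporter SLC2A3 gave 219 and 226 in granulosa and 33.8 and 45.3 in theca, alike on both arrays of each layer (2.11 ± 0.38, adjusted p = 0.00632). PFKFB3, which speeds glycolysis, gave 324 and 244 in granulosa and 64.7 and 50.2 in theca (2.02 ± 0.36, adjusted p = 0.00668). LDHA, the enzyme that makes lactate, gave 3858 and 2996 in granulosa and 695 and 1177 in theca (1.89 ± 0.35, adjusted p = 0.00854), while its other probe sets gave -1.22 and -0.65. The pyruvate kinase PKM gave 1.44 (adjusted p = 0.0427). VEGFA lost its call without granulosa 1 (0.0914), theca 1 (0.111) or theca 2 (0.101), SLC2A3 without theca 1 (0.078), PFKFB3 without granulosa 1 (0.0637) or theca 2 (0.0779), LDHA without granulosa 1 (0.0705) or theca 1 (0.129) and PKM without granulosa 1 (0.0933), granulosa 2 (0.121), theca 1 (0.215) or theca 2 (0.196). Both granulosa arrays lay above both theca arrays for 18 of the 24 genes, whereas this held for 29.4% of all genes tested. The 5 calls became 2, 5, 1 and 2 without granulosa 1, granulosa 2, theca 1 and theca 2.

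Cell cycle genes leaned the same way, with 4 of 31 higher and 0 lower (17 and 0 at an unadjusted p under 0.05) at a median of 0.93. UBE2C, a ubiquitin enzyme of mitosis, gave 817 and 1067 in granulosa and 219.7 and 198 in theca (2.08 ± 0.49, adjusted p = 0.0302). The mitotic kinases PLK1 (1.58 ± 0.39, adjusted p = 0.0372) and AURKB (1.67 ± 0.43, adjusted p = 0.0428) were called, as was cyclin D2, CCND2, with 1961 and 951 in granulosa and 422 and 421 in theca (1.66 ± 0.39, adjusted p = 0.0306). Granulosa lay above theca on all arrays for 24 of the 31 genes, whereas this held for 29.4% of all genes tested. CCND2 alone kept a call without 1 array, namely granulosa 2 (0.0152), and the count was 0 without granulosa 1, theca 1 or theca 2 and 1 without granulosa 2. Immediate early genes, which answer to growth signals and to handling, were higher for 4 of 22 and lower for 0 (9 and 1 at an unadjusted p under 0.05), at a median of 0.48. These were ATF3 (1.62 ± 0.38, adjusted p = 0.0302), FOSL1 (1.55 ± 0.33, adjusted p = 0.0171), ZFP36 (1.54 ± 0.38, adjusted p = 0.0383) and JUNB (1.43 ± 0.31, adjusted p = 0.0199). Their count was 0 without granulosa 1, theca 1 or theca 2, and 2 without granulosa 2. FOS itself lay lower in granulosa at -0.80 and did not pass (adjusted p = 0.3).

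The IGF system split between the layers, with 2 of 11 genes higher and 3 lower at a median of 0.18. Among the binding proteins, which hold IGF in the fluid and matrix, IGFBP5 was higher in granulosa with 821 and 1736 in granulosa and 88.0 and 202 in theca (3.01 ± 0.46, adjusted p = 0.00255). IGFBP6 was lower with 183 and 318 in granulosa and 2588 and 2249.8 in theca (-3.24 ± 0.43, adjusted p = 0.000819), and both calls held without any 1 array. IGFBP4, at 171 and 163 in granulosa and 923 and 633 in theca (-2.09 ± 0.47, adjusted p = 0.0224), lost its call without granulosa 1 (0.1), granulosa 2 (0.0616), theca 1 (0.181) or theca 2 (0.0743). IGFBP3, at 278 and 133 in granulosa and 762 and 496 in theca (-1.59 ± 0.39, adjusted p = 0.037), lost it without granulosa 2 (0.14), theca 1 (0.26) or theca 2 (0.0904). Of the ligands, IGF1 was higher in granulosa with 199 and 51.2 in granulosa and 16.1 and 3.5 in theca (2.26 ± 0.57, adjusted p = 0.0395) and lost its call without granulosa 1 (0.269), theca 1 (0.106) or theca 2 (0.265), with 0.62 on its other probe set. IGF2 gave 498 and 848 in granulosa and 1338 and 1489.9 in theca and did not pass (-1.10 ± 0.37, adjusted p = 0.112). The receptors IGF1R, IGF2R and INSR gave 0.36, 0.39 and 1.18, none called. The calls were 1 higher and 2 lower without granulosa 1, 3 and 1 without granulosa 2, 1 and 1 without theca 1 and 1 and 1 without theca 2. The median changed sign with the array left out, at -0.08, -0.47, 0.46 and -0.10 in that order.

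TGF-beta and BMP genes were called for 1 higher and 2 lower of 23, at a median of -0.02 (-0.14 to 0.13 with 1 large array left out). These few calls are 4.35% and 8.7% of the list, beside 2.22% and 2.65% of all genes tested. The ligand TGFB1 was higher in granulosa with 148 and 315 in granulosa and 47.5 and 59.9 in theca (1.75 ± 0.45, adjusted p = 0.0434), and lost its call without granulosa 1 (0.0504), granulosa 2 (0.166), theca 1 (0.226) or theca 2 (0.163). ID1, a target gene of BMP signals, was lower with 148 and 343 in granulosa and 972 and 1304 in theca (-2.24 ± 0.39, adjusted p = 0.00603), and lost its call without granulosa 1 (0.0649) or theca 2 (0.0743). LTBP2, which binds elastic fibres, gave -1.80 (adjusted p = 0.0332) and was not called without granulosa 1 (0.148), granulosa 2 (0.0647) or theca 1 (0.276), and its other probe set gave -0.35. Receptors and SMADs ran from BMPR1A at -1.21 to ACVR2B at 0.86, none called.

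Proteases and their inhibitors had 4 higher and 2 lower of 21, at a median of 0.82. The metalloprotease MMP19 gave 1564 and 378 in granulosa and 161 and 39.3 in theca (2.99 ± 0.64, adjusted p = 0.0194), and urokinase, PLAU, 704 and 319 in granulosa and 132 and 50.9 in theca (2.30 ± 0.44, adjusted p = 0.0107). The lysosomal CTSZ (1.90 ± 0.43, adjusted p = 0.0234) and MMP9 (1.36 ± 0.36, adjusted p = 0.0468), both also made by leukocytes, were the other rises. MMP9 was dim, with 33.9 and 58.0 in granulosa and 1.9 and 15.4 in theca. MMP19 lost its call without granulosa 1 (0.165) or theca 2 (0.204), PLAU without granulosa 1 (0.101) or theca 2 (0.136), CTSZ without granulosa 1 (0.154), theca 1 (0.0624) or theca 2 (0.217) and MMP9 without granulosa 1 (0.0772), granulosa 2 (0.142), theca 1 (0.351) or theca 2 (0.0722). On the theca side ADAMTS4, an aggrecan-cutting protease, gave 287 and 160 in theca and 31.3 and 1.2 in granulosa (-3.02 ± 0.54, adjusted p = 0.00682) beside ADAMDEC1, and lost its call without theca 1 (0.0856). MMP2 gave 1181 and 765 in theca and 82.8 and 513 in granulosa and did not pass (-2.08 ± 0.62, adjusted p = 0.0741).

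Hedgehog, WNT and NOTCH genes were lower for 3 of 17 and higher for 0 (1 at an unadjusted p under 0.05). DKK3, of a family of WNT inhibitors, gave 1219.8 and 870.2 in theca and 88.2 and 278 in granulosa (-2.58 ± 0.43, adjusted p = 0.00426), RSPO3, which strengthens WNT signals, 332 and 292 in theca and 79.0 and 21.8 in granulosa (-2.45 ± 0.42, adjusted p = 0.005), and the receptor FZD1 695 and 462 in theca and 106 and 191 in granulosa (-1.87 ± 0.40, adjusted p = 0.0182). DKK3 lost its call without theca 1 (0.0599), RSPO3 without theca 1 (0.0572) and FZD1 without granulosa 1 (0.136), theca 1 (0.174) or theca 2 (0.0547). PTCH1, the receptor of hedgehog ligands and a target of their signal, was too dim to be tested, with 1.3 and 6.7 in theca and 8.1 and 16.3 in granulosa, and its signalling partner SMO gave -0.20 (adjusted p = 0.791). Among 26 other ligands and receptors 1 was higher (SPP1) and 3 lower, at a median of -0.04 (-0.16 to 0.06 with 1 large array left out). These few calls are 3.85% and 11.5% of the list, beside 2.22% and 2.65% of all genes tested. The lower ones were SCG2, ITGB3 and the endothelin receptor EDNRA (-1.88 ± 0.36, adjusted p = 0.0111), which lost its call without granulosa 2 (0.0524) or theca 1 (0.133).

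The remaining lists gave few calls or none. Chemokines and cytokines had 2 higher of 19 and 0 lower (5 and 2 at an unadjusted p under 0.05), at a median of 0.74 (0.47 without granulosa 1). They were CCL3 with 369.9 and 172 in granulosa and 51.7 and 26.7 in theca (2.33 ± 0.45, adjusted p = 0.0105), lost without granulosa 1 (0.1) or theca 2 (0.114), and CSF2RB, a cytokine receptor chain (1.6 ± 0.40, adjusted p = 0.0395), lost without granulosa 1 (0.23) or theca 2 (0.355). Antioxidant genes had 0 higher (3 at an unadjusted p under 0.05) and 2 lower of 26, the glutathione transferases GSTM3 (-2.70 ± 0.49, adjusted p = 0.00735) and GSTA4 (-1.58 ± 0.30, adjusted p = 0.00912). GSTM3 lost its call without theca 1 (0.0749) and GSTA4 without granulosa 1 (0.0566), theca 1 (0.112) or theca 2 (0.0591). Limma called 0 of 22 cholesterol genes, 0 of 18 interferon response genes and 0 of 11 ovulatory genes. At an unadjusted p under 0.05 these lists had 3 higher and 3 lower, 1 and 0, and 5 and 1. Their medians were -0.38, 0.19 and 0.90, with ranges of -0.50 to -0.25, -0.32 to 0.72 and 0.46 to 1.08 when 1 large array was left out. Limma with an intensity trend gave the same count for each of the 26 lists in each direction, except for 6 higher instead of 5 in the hypoxia and glycolysis list.

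Part of the strongest differences lay on probe sets with no gene name here. Among the 50 largest rises 9 were unnamed, and among the 50 largest falls 14. The largest difference of all tested probe sets was one of them, with signals of 2819.5 and 3176 in theca and 12.2 and 1.4 in granulosa. It gave -7.09 ± 0.35 (136-fold, adjusted p = 1.59e-07), and its differences in small and medium follicles were -6.10 and -6.12. Its identifier begins with the same number as that of the ASPN probe set, which gave -5.08 in large follicles. Whether both read the same gene was not tested. Probe sets of 1 gene could also disagree. The other probe set gave a difference smaller by over 1.5 times for CLDN11 (-2.25), COL15A1 (-1.45), DKK3 (-1.16), IGFBP3 (-0.99), FZD1 (-0.87), FABP4 (1.71), VEGFA (1.48), CD2 (1.10) and PFKFB3 (0.95). SIRPA, a receptor of myeloid cells, was the only gene with calls in both directions, its 3 probe sets running from -1.27 to 1.82.

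The same layers in small and medium follicles show which differences the sizes share. Of the 412 probe sets lower in large granulosa, 394 (95.6%) also lay below 0 in both other sizes, and 251 were called there too. Of the 348 that were higher, 232 (66.7%) lay above 0 in both other sizes and 47 were called in all. Of all 17236 probe sets tested, 1575 were called in small and 1034 in medium follicles, in either direction. The share of all tested probe sets that lay on the same side in every size was not counted. From small over medium to large follicles CYP17A1 gave -5.94, -5.29 and -5.03, and KRT18 4.33, 3.45 and 3.53. S100A12 gave 0.59, 1.78 and 4.17, and SCG2 -1.88, -2.16 and -5.81. Without theca small 1 the values in small follicles were -5.22, 4.52, 0.36 and -1.13 for these 4 genes. The counts called in all sizes then became 203 lower and 26 higher. In small, then medium, then large ones, the median of the 14 leukocyte genes was -1.12, -0.52 and 1.6 (0.92 without granulosa 1), and that of the 16 theca genes -1.18, -0.88 and -1.33. The sizes were tested in 1 fit with a shared estimate of the spread.

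**Figure D4:**
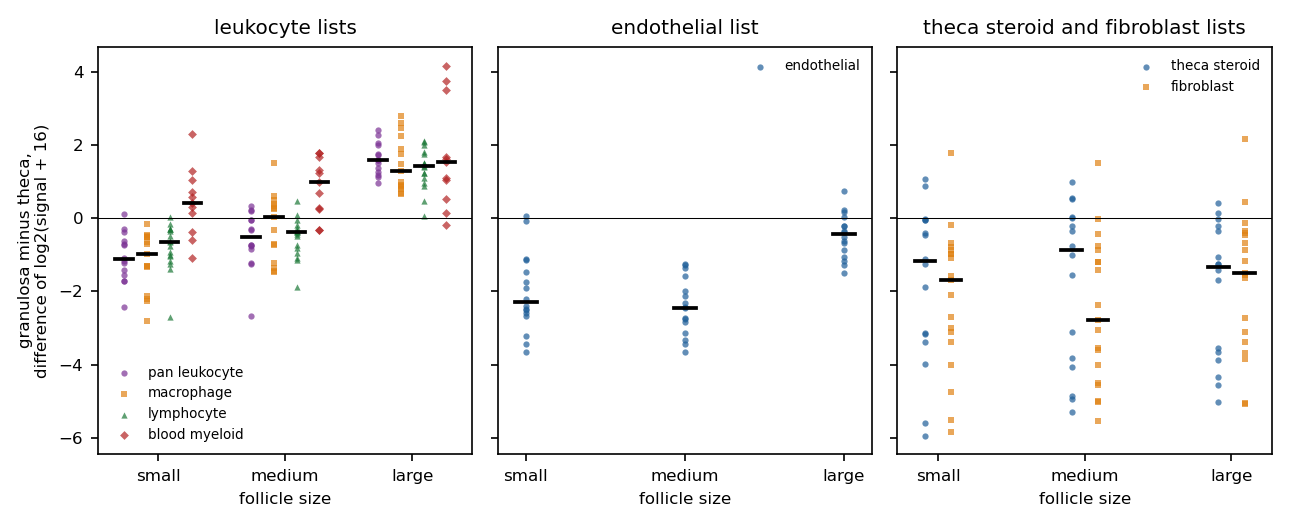
Each point is a gene of the lists named in the panels, at its granulosa minus theca difference of log2(signal + 16) in small, medium and large follicles, and bars are list medians. The macrophage, lymphocyte and shared leukocyte lists have medians near or below 0 in small and medium follicles. In large follicles their medians are 1.29 to 1.6 (0.57 to 0.92 without granulosa 1). The endothelial list has medians of -2.30 and -2.45 in small and medium follicles and -0.44 in large ones (-0.98 without granulosa 1 and -0.11 without theca 1), and the theca steroid list stays between -1.33 and -0.88.

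The test of the difference between sizes asked where the layer difference in large follicles departs from the mean of small and medium ones. It called 10 probe sets (0.058%), 10 higher and 0 lower, with 1855 at an unadjusted p under 0.05. Of these 8 had a gene name, and 4 of the 10 were also called within large follicles. CCL5 departed by 4.0 ± 0.54 (adjusted p = 0.0264). Its granulosa signals were 2.4 and 2.9 in small follicles, 37.9 and 5.3 in medium ones and 557 and 297 in large ones, while its theca signals stayed between 48.0 and 129. UCP2, a carrier of the inner mitochondrial membrane, departed by 3.86 ± 0.46 (adjusted p = 0.0133), with granulosa at 10.2 or less in small and medium follicles and at 214 and 94.7 in large ones. Its theca signals were lower in large follicles, at 106 and 83.3 in small follicles, 100.1 and 131 in medium ones and 45.5 and 39.9 in large ones. IGF2 departed by 2.82 ± 0.46 (adjusted p = 0.0471), and its theca signals too were lower in large follicles, with 4707 and 2567 in small, 3040.1 and 3394 in medium and 1338 and 1489.9 in large ones. Its other probe sets gave -0.96 and 0.54 within large follicles. Without granulosa 1 the test called 0, and without granulosa 2 it called 331. Without theca 1 or theca 2 it called 0 each. Without theca small 1 it called 6, CCL5 (0.0368) and UCP2 (0.0362) among them, while IGF2 was not called (0.062).

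**Figure D5:**
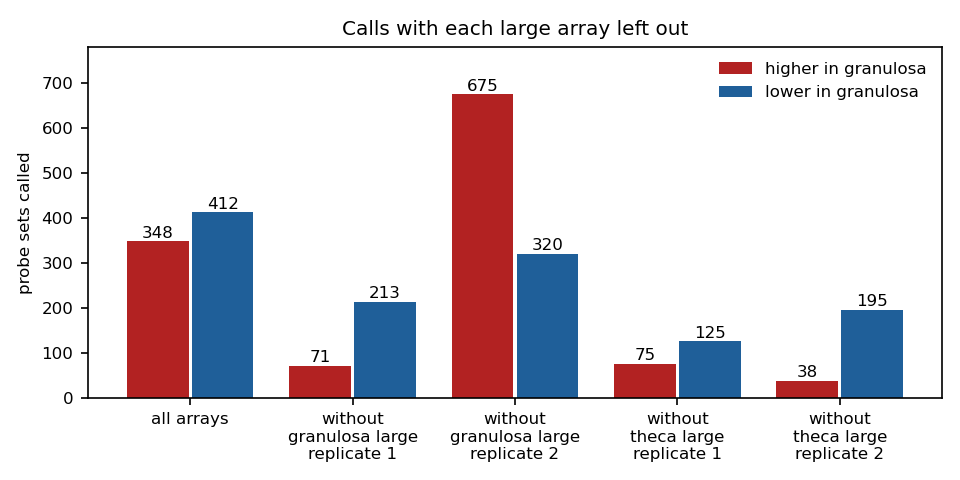
Bars give the number of probe sets called higher (red) and lower (blue) in granulosa of large follicles with all arrays and with each large array left out. The lower calls run from 125 to 412, whereas the higher ones run from 38 without theca replicate 2 to 675 without granulosa replicate 2.

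The counts changed with the array left out more for calls higher in granulosa than for lower ones. With all arrays 45.8% of the calls were higher in granulosa. Without granulosa 1 there were 284 calls (25% higher), without granulosa 2 there were 995 (67.8%), without theca 1 there were 200 (37.5%) and without theca 2 there were 233 (16.3%). After quantile normalization 33.9% of 705 calls were higher. Of the 760 calls 124 held without any 1 large array, 16 higher and 108 lower, and 186 were lost each time. KRT18, S100A12, S100A8, FCN1, C3 and IGFBP5 were the named rises among the 16. The named falls that held included CYP17A1, INSL3, APOD, TCF21, SCG2, OGN, FBLN5, NID1, MYH11 and RGS5.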

How the data were processed

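Total RNA of granulosa or theca was labelled with biotin and read on Affymetrix bovine arrays of 1 colour, per the labels' protocols. The authors deposited linear signal intensities, with 1 value for a probe set on an array. Their software is not given in the sources used here. Detection calls were not used here. The 2% trimmed mean was 125.03 to 125.04 on every array, so the values had been scaled to a common level. All 12 columns matched a sample by identifier and 0 stayed unmapped. Groups came from the sample titles.

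Of 24128 probe sets, 112 controls were left out. The platform annotation gave 1 gene symbol to 13292 of the remaining 24016 and several to 86, and 10638 are unnamed here. Entrez identifiers of 13263 were found in the RefSeq table (assembly ARS-UCD2.0), which changed 0 symbols and was used for names only, and no sequence was used here.

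The signals were turned into log2(signal + 16). A probe set was tested if the mean of at least 1 of the 6 groups was above a signal of 22.5, the 40th percentile over all arrays. A limma model (version 3.58.1, R 4.3.3) with a mean per group over all 12 arrays left 6 residual degrees of freedom, to which the prior added 7.92 at an SD of 0.376. Calls are Benjamini-Hochberg adjusted p-values under 0.05 over all tested probe sets. The number of arrays limits the precision, since the smallest exact permutation p (two-sided) for 2 against 2 arrays is 0.333. The p-values measure the spread between pools, and whether pools shared animals is not given. On simulated data for the comparison of the layers in large follicles (17199 probe sets), 126 of 200 shifts of 2 (log2) were recovered with 6 false calls. Of 200 shifts of 1 (log2), in a run on 17218 probe sets, 0 were. Apart from these shifts, placed on brighter probe sets, the simulated layers did not differ. The recoveries therefore do not give the power of the real comparison, which called 760 probe sets.

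The 26 gene lists had 674 entries, of which 506 were measured and 462 tested. The brightest probe set stood for a gene, and list medians are descriptions with no test. Named genes are 13 key genes, up to 5 called members of a list in each direction, the 15 largest rises and falls whose arrays did not overlap, and the 8 largest departures between sizes in each direction. Other names were chosen after their values were seen. The comparison, lists and rule were chosen with earlier results of these data known. There were 14 alternative settings, covering the pseudocount, filter, normalization, intensity trend, replicate block and left-out arrays. When 1 large array is left out, the lone array of its layer is assumed to vary like the other groups. A call can then also be lost because fewer arrays remain. Python 3.11.15 with matplotlib 3.10.9 drew the figures.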

Additional observations from a re-analysis of the deposited data

Results flagged for a closer look

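For 8 named genes the layer difference in large follicles departed from the mean layer difference of small and medium follicles by a limma test of that departure, always towards granulosa. The departures (log2) were 4.0 for CCL5 (adjusted p = 0.0264), 3.86 for UCP2 (0.0133), 3.68 for ARHGDIB (0.0471) and 3.5 for IGHM (0.0314). They were 3.13 for CCL14 (0.0471), 3.02 for BOLA (0.0471), 2.93 for ARHGAP45 (0.0496) and 2.82 for IGF2 (0.0471). CCL14, a chemokine, did not pass within large follicles (-0.70), with 56.9 and 27.9 in granulosa and 76.9 and 75 in theca. Its theca signals were 404 and 316 in small and 575 and 329 in medium follicles. ARHGDIB gave 1.13 and BOLA, an MHC class I gene, 1.30 within large follicles, neither called. Without theca small 1, which stood apart by its GAPDH ratio, ARHGDIB (0.0598), CCL14 (0.0663), ARHGAP45 (0.0843) and IGF2 (0.062) were not called. None of the 8 departures was called without granulosa 1, theca 1 or theca 2, settings in which the test made 0 calls.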

How the results depend on the processing

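The comparison of the layers in large follicles called 760 probe sets. It stayed within 1.5 times of that with log2(signal + 64), no filter, a filter at the 60th percentile, quantile normalization, an intensity trend or without theca small replicate 1 (572 to 1007). It moved to 367 with log2(signal + 1), to 506 without both arrays that stood apart (granulosa large replicate 1 and theca small replicate 1) and to 447 in a fit of the 4 large arrays alone. Leaving out 1 large array gave 200 to 995. The 10 departures between sizes became 0 with log2(signal + 64), where 1765 had an unadjusted p under 0.05, and 1 without a filter. They became 3 with the filter at the 60th percentile, 4 after quantile normalization, 12 with an intensity trend (all 10 among them), 12 with log2(signal + 1) (10 higher and 2 lower, with 1 of the 10 among them), and 0 without both arrays that stood apart, where 1507 had an unadjusted p under 0.05. Leaving out 1 array gave 0 to 331. The main fit did not pair arrays by replicate number. Deviations of same-numbered arrays correlated at -0.307 (small follicles), -0.179 (medium) and 0.142 (large). With 2 arrays a group, these values cannot show whether same-numbered arrays came from the same pool. With the replicate block 655 probe sets were called between the layers (50.8% higher in granulosa) and 62 departures. No named gene changed direction while called. The 112 named genes include several that were not called in the main fit and had no call to lose. Of the 112, 8 lost their call with the replicate block, 13 after quantile normalization and 22 with log2(signal + 64). Calls were lost for 29 without a filter, 49 with log2(signal + 1) and 32 in the fit of the 4 large arrays alone. The median of the fibrillar matrix list was -1.08 instead of -1.34 when each gene was given the median of its probe sets. Depth is not defined for arrays, and differences of genes near the floor are bounded by the added 16.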
